A study of Mus musculus with 8 samples.

Results

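The genes examined here encode 9 transcription factors that set the fate of helper T cells: Tbx21, Eomes, Gata3, Rora, Bcl6, Prdm1, Maf, Irf4 and Batf. They were taken by gene symbol from a table of 28239 symbols, all 9 were listed, and 8 passed the expression filter. When a naive CD4+ T cell is activated, cytokines in its surroundings switch on one of several competing programmes, each held in place by a lineage factor that promotes its own target genes and restrains the others. T-bet, encoded by Tbx21, drives the Th1 programme, GATA3 the Th2 programme and BCL6 the programme of follicular helper cells (Tfh), while RORα is one of the factors of the Th17 programme. IRF4 and BATF are induced by the T cell receptor itself and open chromatin for several of these fates, Tregs included.

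RNA was collected after 2 days of culture from C57BL/6 cells of 2 genotypes, wild type (WT) and Alox15-/-, with 4 libraries each. Naive CD4+ T cells had been enriched from spleen by removing other cells with magnetic beads, and were driven towards Tregs with TGF-β at 5 ng/ml, IL-2 at 100 U/ml and activation beads against CD3 and CD28 at 1 per cell. The study's methods give mice of both sexes aged 10 to 12 weeks, the WT and Alox15-/- animals bought from different suppliers, and they name no driver that would limit the deletion to a cell type. The sex of each library is not labelled, and Xist and the Y-linked gene Ddx3y were both counted in all 8 libraries, with at least 172 and 170 reads, and whether a library pools animals is not stated. The study measured lineage factors, T-bet among them, as proteins in such cultures, and the comparison here asks how the messenger RNAs of the lineage factors stood in the same genotypes.

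The total count ranged from 3723151 to 9538962 reads per library. Levels are given as CPM, that is read counts relative to the total of the library, after TMM scaling between libraries. The targeted gene went against its label. Alox15 stood at 70.2, 68.8, 63.4 and 65.0 CPM in the libraries labelled Alox15-/- and at 1.87, 2.55, 7.73 and 8.98 CPM in WT, so that every library labelled Alox15-/- lay above every WT library (log2 fold change 3.65 with a standard error of 0.30, edgeR adjusted p = 1.08e-05). Genotypes are therefore named as labelled, and each difference is the libraries labelled Alox15-/- minus WT. Markers of T cells were at 2055 to 2373 summed CPM in the libraries labelled Alox15-/- and 2260 to 2632 in WT, and Treg markers at 2362 to 2647 and 2347 to 2978. B cell markers summed to 337 to 446 CPM in the libraries labelled Alox15-/- and 390 to 443 in WT, and plasma cell markers to 125 to 145 and 127 to 163. Markers of some other cells were not level between the groups. Erythroid markers summed to 913 to 3499 CPM against 71.7 to 139 CPM, myeloid markers to 52.1 to 385 against 15.1 to 22.1, mast cell and basophil markers to 145 to 376 against 59.3 to 83.9, and γδ T cell markers to 77.6 to 141 against 26.9 to 44.2. These 4 sums did not overlap between the groups (two-sided exact permutation test, p = 0.0286 each, the smallest that 4 against 4 allow, or 0.0714 when adjusted for the 10 lists of markers). Gene by gene, edgeR called 5 of 6 erythroid, 6 of 7 myeloid, 8 of 9 mast cell and basophil and 4 of 4 γδ T cell markers tested, all higher in the libraries labelled Alox15-/-. Testing required 2 CPM or more in 4 or more libraries. Alas2 of the erythroid list and S100a9 and Ngp of the myeloid list reached 2 CPM only in the libraries labelled Alox15-/-. The same held for Ms4a2, Prss34, Hdc and Cma1 of the mast cell list, so the filter set the direction of all these markers.

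None of the lineage factors passed the test. The filter, 2 CPM or more in 4 or more libraries, left 12700 genes, of which 158 (1.24%) had an adjusted p under 0.05 in edgeR's quasi-likelihood test, and 0 of the 8 lineage factors tested were among them. Before adjustment, 3 of the 8 (Gata3, Irf4 and Eomes) lay under 0.05, beside 7.84% of all genes tested. The groups overlapped for all 9 factors, whereas they did not overlap for 5.25% of all genes tested. The median log2 fold change was 0.22 over the 8, of which 6 had a positive and 2 a negative value, and -0.0073 over all genes tested. In absolute size the median was 0.35, and 0.125 over all genes. The spread fitted between libraries of a group (biological coefficient of variation) was wider too, with a median of 21.7% over the 8 and 14.2% over all genes tested.

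**Figure D1:**
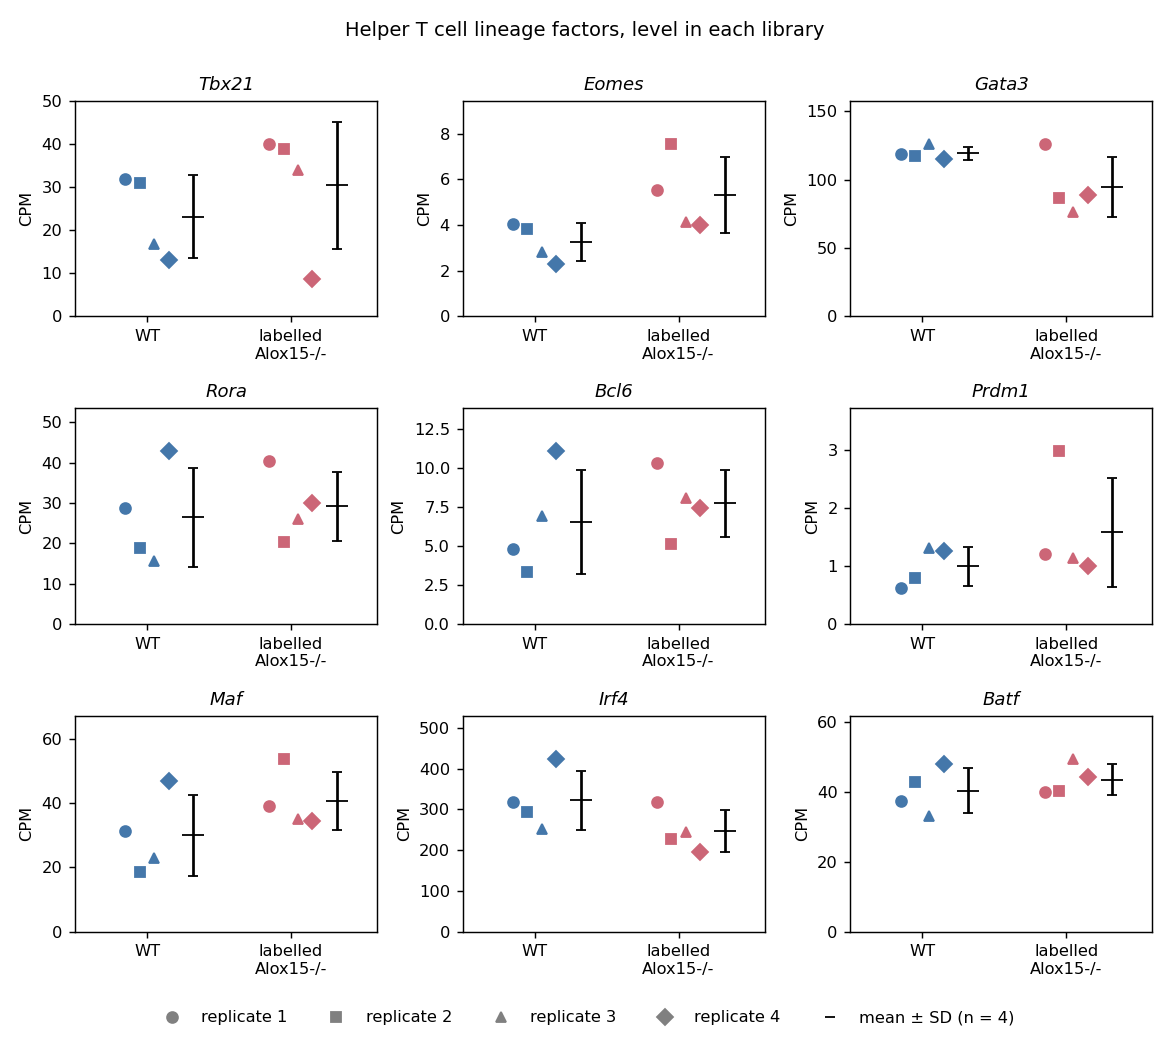
Level of each of the 9 lineage factors in CPM (vertical axis, from 0, scale differs between panels) in the 4 WT libraries (blue) and the 4 libraries labelled Alox15-/- (red), with symbols for replicate numbers and a bar for the mean ± SD (n = 4). In every panel the points of the groups overlap, and for Tbx21 the lowest point, at 8.73 CPM, and the 3 highest are in the libraries labelled Alox15-/-.

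Among the factors of the Th1 and cytotoxic programmes, Tbx21 showed the widest spread between libraries. Tbx21 encodes T-bet, which activates Ifng and Cxcr3, and lies on chromosome 11 (GRCm38, 97098071 to 97115331, minus strand), 26.7 Mb from Alox15. It was at 40.1, 38.9, 34.1 and 8.73 CPM in replicates 1 to 4 labelled Alox15-/- and at 31.8, 31.1, 16.8 and 13.2 CPM in WT. The lowest of all 8 libraries and the 3 highest were thus in the same group. The means were 30.4 ± 14.7 CPM and 23.2 ± 9.64 CPM (SD, n = 4), a log2 fold change of 0.36 with a standard error of 0.37 and an adjusted p of 0.869 (edgeR quasi-likelihood test, as for every adjusted p below). The 95% interval ran from -0.43 to 1.14, that is from 0.744-fold to 2.21-fold of WT. Counting error was small beside the spread: 61 to 204 reads per library give a coefficient of variation of 9.33% and 8.93% in the groups, against 48.3% and 41.5% observed. The biological coefficient of variation fitted for Tbx21, 35.6%, was above that of 99.1% of the genes tested. Without replicate 4 labelled Alox15-/- the log2 fold change was 0.70 (adjusted p = 0.509), and without WT replicate 4 it was 0.18, these being the highest and lowest values with 1 library left out.

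Eomes encodes the second T-box factor of T cells, known from CD8 T cells and NK cells, where it acts beside T-bet (chromosome 9, 118478212 to 118486132, plus strand). It was sparsely counted, with 11 to 28 reads per library, or 5.53, 7.56, 4.14 and 4.01 CPM in the libraries labelled Alox15-/- and 4.06, 3.82, 2.81 and 2.30 CPM in WT. All but 1 of the libraries labelled Alox15-/- lay above every WT library, and the lowest of them, at 4.01 CPM, was just under the highest WT library. The log2 fold change of 0.66 (standard error 0.29, 95% interval 0.05 to 1.28) was the largest of the 8 in size and did not pass (adjusted p = 0.592). Counting error alone gives a coefficient of variation of 20.0% and 22.7%, beside the 31.1% and 25.7% observed. Markers of NK and other innate lymphoid cells summed to 34.6, 71.5, 52.1 and 24.3 CPM in replicates 1 to 4 labelled Alox15-/- and to 29.6, 14.5, 17.0 and 35.5 CPM in WT. Of this list, 11 of 12 markers were listed and 5 reached the filter. Of those, 1 passed, Tyrobp, which the list of myeloid markers holds too. None was at 0 in every library, while Ncr1, which marks NK cells, stayed at or under 1.25 CPM. Of the 5 tested, 4 had a positive and 1 a negative log2 fold change. Klrk1 was at 4.32, 9.99, 7.52 and 2.86 CPM in the libraries labelled Alox15-/- and at 2.81, 2.23, 3.11 and 3.34 CPM in WT. Gzma was at 8.41, 22.1, 13.4 and 3.01 CPM against 12.5, 4.14, 3.91 and 10.2 CPM. CD8 T cell markers summed to 12.5 to 22.8 CPM against 21.7 to 32.4 CPM in WT. The part of such cells in the levels of Eomes and Tbx21 was not tested, and in these bulk libraries fewer cells of a type cannot be told apart from less RNA per cell.

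Gata3, which encodes the zinc finger factor that T cells need from the thymus onwards and that drives Th2 cytokines, had the smallest p of the 8. It was at 126, 86.9, 76.8 and 88.6 CPM in replicates 1 to 4 labelled Alox15-/- and at 119, 117, 126 and 115 CPM in WT. The WT libraries lay within 1.09-fold of each other, a coefficient of variation of 3.90% against 3.63% from counting alone. In the other group 3 libraries lay below all of WT and replicate 1 lay above all of WT. Its log2 fold change came to -0.34 (standard error 0.13, 95% interval -0.62 to -0.05), and it did not pass with all libraries kept (adjusted p = 0.519). Without replicate 1 labelled Alox15-/-, it became -0.50 and passed (adjusted p = 0.0464); over 16 alternatives the adjusted p ranged from 0.0464 to 0.854. The gene lies on chromosome 2 (GRCm38, 9857078 to 9890034, minus strand) and shares exon bases with Gm13256 on the opposite strand. Gm13256 had 13 to 168 reads per library, at 3.51 to 11.8 CPM in the libraries labelled Alox15-/- and 10.1 to 18.8 CPM in WT (log2 fold change -0.88, adjusted p = 0.256), and since the counting is not stated to use strand, the reads of such a pair cannot be told apart.

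Genes whose levels followed Gata3 most closely over the 8 libraries were Kcnmb4, Cep68 and Gm7935, with root mean square differences of 0.102, 0.11 and 0.111 in log2 units after centring, beside 0.262 for the movement of Gata3 itself. None passed the test (adjusted p of 0.561, 0.458 and 0.821).

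Rora encodes RORα, a nuclear receptor of Th17 cells and of type 2 innate lymphoid cells (chromosome 9, 68653786 to 69388246, plus strand). It was at 40.4, 20.2, 26.0 and 30.1 CPM in the libraries labelled Alox15-/- and at 28.7, 18.8, 15.7 and 42.8 CPM in WT, so that both the highest and the lowest library were WT. Its log2 fold change came to 0.17 (standard error 0.27, 95% interval -0.41 to 0.75, adjusted p = 0.922), and its sign turned without replicate 1 labelled Alox15-/- (-0.016) and without WT replicate 3 (-0.025).

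**Figure D2:**
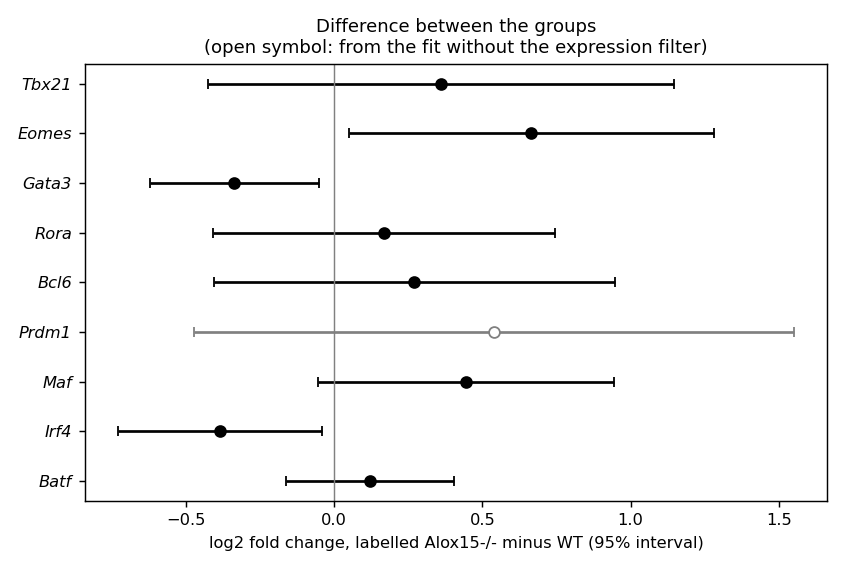
Log2 fold change of each lineage factor (horizontal axis, libraries labelled Alox15-/- minus WT) with its 95% interval from edgeR's quasi-likelihood fit, n = 4 per group. Intervals of Gata3, Irf4 and Eomes leave out 0 before adjustment over all genes, none passes after it, and Prdm1, under the expression filter, is drawn open from the fit without that filter.

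BCL6 and BLIMP-1, the product of Prdm1, repress each other, BCL6 favouring Tfh cells and BLIMP-1 terminal effector cells and IL-10 production. Bcl6 (chromosome 16, 23965052 to 23988852, minus strand) was at 10.3, 5.13, 8.09 and 7.44 CPM in the libraries labelled Alox15-/- and at 4.83, 3.35, 6.92 and 11.1 CPM in WT. The WT libraries spanned 3.31-fold and enclosed all libraries of the other group (log2 fold change 0.27, standard error 0.32, 95% interval -0.40 to 0.95, adjusted p = 0.886), and with 1 library left out it ranged from 0.059, without WT replicate 2, to 0.59, without WT replicate 4. Prdm1 (chromosome 10, 44437177 to 44528501, minus strand) had only 4 to 13 reads per library and did not reach the filter. It stood at 1.20, 2.97, 1.13 and 1.002 CPM in the libraries labelled Alox15-/- and at 0.624, 0.797, 1.30 and 1.25 CPM in WT, with replicate 2 labelled Alox15-/- above the rest. In the fit without the filter its log2 fold change was 0.54 with a 95% interval from -0.47 to 1.55 (adjusted p = 0.768), which leaves its direction unresolved.

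Maf encodes c-MAF, which supports IL-10, IL-4 and IL-21 expression in several helper subsets (chromosome 8, 115682942 to 115707794, minus strand). It was at 39.2, 53.7, 34.99 and 34.3 CPM in the libraries labelled Alox15-/- and at 31.3, 18.5, 23.1 and 47.0 CPM in WT. WT replicate 4 lay above 3 of the 4 libraries labelled Alox15-/-, and the other WT libraries lay below all of them. Its log2 fold change came to 0.44 (standard error 0.23, 95% interval -0.05 to 0.94, adjusted p = 0.698). With 1 library left out it ranged from 0.27, without WT replicate 2, to 0.73, without WT replicate 4, and did not pass in either (adjusted p of 0.852 and 0.0829).

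Irf4 and Batf encode the pair that binds together at composite elements downstream of the T cell receptor. Irf4 (chromosome 13, 30749226 to 30766976, plus strand) was at 318, 228, 244 and 196 CPM in the libraries labelled Alox15-/- and at 319, 293, 253 and 423 CPM in WT. All libraries but replicate 1 of the first group lay below all of WT (log2 fold change -0.38, standard error 0.16, 95% interval -0.73 to -0.04, adjusted p = 0.561). With 845 to 2517 reads per library Irf4 was the most deeply counted of the 9, and counting error alone gives a coefficient of variation of 2.93% and 2.19%, beside the 21.0% and 22.6% observed. Irf4 passed in 1 of 16 alternatives, the fit without the expression filter (-0.41, adjusted p = 0.024), where its standard error fell to 0.11. Its value shrank to -0.22 without WT replicate 4 (adjusted p = 0.743). Batf (chromosome 12, 85686669 to 85709087, plus strand) was at 39.9, 40.2, 49.3 and 44.1 CPM against 37.4, 42.9, 32.9 and 47.8 CPM in WT. Its log2 fold change of 0.12 (standard error 0.13, adjusted p = 0.876) came with an interval from -0.16 to 0.40, or 0.893-fold to 1.32-fold of WT, the narrowest of the 8. With 1 library left out the value ran from 0.035, without WT replicate 3, to 0.21, without WT replicate 4.

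How large a difference would have been called depends on the spread of each gene. At the standard errors above, the largest p that passed the adjustment over all genes corresponds to a change of 1.49-fold for Batf and Gata3, 1.62-fold for Irf4, 2.02-fold for Maf, 2.26-fold for Rora, 2.38-fold for Eomes, 2.59-fold for Bcl6 and 3.03-fold for Tbx21. Smaller differences in these messenger RNAs could therefore have been missed, most of all for Tbx21.

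Some libraries stood at the edge of their group for several factors. WT replicate 4 was the highest WT library for 5 of the 9 (Rora, Bcl6, Maf, Irf4 and Batf) and the lowest for 3 (Tbx21, Eomes and Gata3). In log2 units it stood 0.79 above its group mean for Rora, 0.84 for Bcl6, 0.73 for Maf and 0.42 for Irf4, and at -0.70 for Tbx21. In the other group, replicate 1 was the highest library for 5 of the 9 and replicate 4 the lowest for 5, at -1.53 for Tbx21. For Gata3 all WT libraries lay within 0.0775 of their mean.

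**Figure D3:**
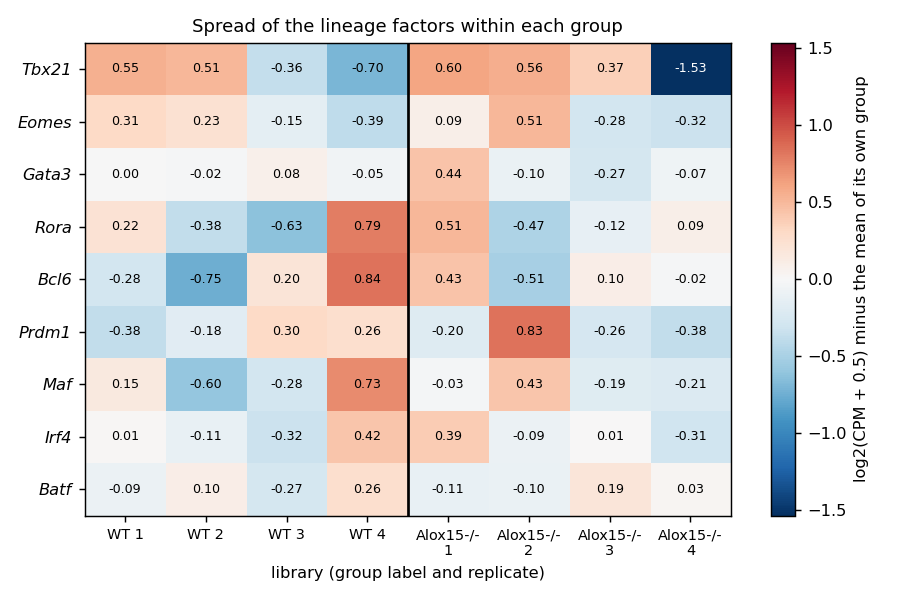
Deviation of each library from the mean of its own group in log2(CPM + 0.5), for the 9 lineage factors (rows) in 4 WT libraries and 4 libraries labelled Alox15-/- (columns), blue for below and red for above. WT replicate 4 is red for Rora, Bcl6, Maf, Irf4 and Batf and blue for Tbx21 and Eomes, and the darkest cell is Tbx21 in replicate 4 labelled Alox15-/-.

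Within each library 3 ratios between factors were compared, with 0.5 CPM added to each level. Bcl6 to Prdm1 was at a log2 ratio of 2.04 ± 0.905 against 2.14 ± 0.478 in WT (SD, n = 4; p = 0.886 by exact permutation, two-sided, and 0.886 adjusted over the 3 ratios). This ratio turned from -0.10 to 0.35 when replicate 2 labelled Alox15-/- was left out, the library with 11 reads on Prdm1. Tbx21 to Gata3, Th1 factor over Th2 factor, was at -1.81 ± 1.003 against -2.43 ± 0.631 (exact permutation test, p = 0.286, adjusted 0.429). The ratio was above every WT library in replicates 1, 2 and 3 labelled Alox15-/- and below all of them in replicate 4. Irf4 to Batf was at 2.48 ± 0.366 against 2.97 ± 0.167, a difference of -0.50 with 3 of 4 libraries labelled Alox15-/- below all of WT (exact permutation test, p = 0.0857, adjusted 0.257).

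**Figure D4:**
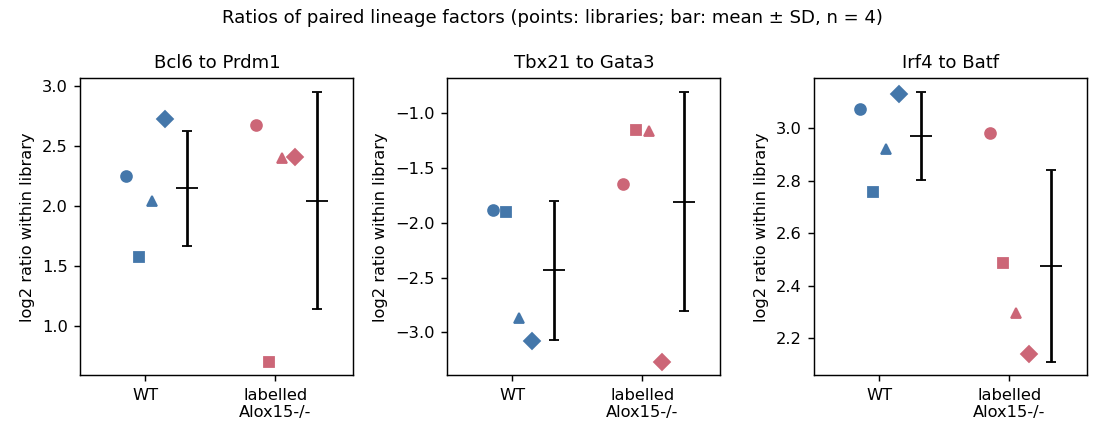
Log2 ratio of the CPM of paired lineage factors within each library (vertical axis; a pseudocount of 0.5 was added), with symbols for replicates 1 to 4 as circle, square, triangle and diamond, WT in blue, libraries labelled Alox15-/- in red, and the mean ± SD (n = 4) as a bar. The groups overlap in all 3 panels; in the panel of Irf4 to Batf replicate 1 is the library labelled Alox15-/- that lies among WT.

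Among other factors of CD4 T cell fate, 0 passed as well. Of 30 sought, 29 were in the table and 25 were tested; 11 had a positive and 14 a negative log2 fold change, the median was -0.08, and 2 lay under 0.05 before adjustment in edgeR. The smallest p belonged to Ikzf3, which encodes Aiolos (log2 fold change 0.47, adjusted p = 0.561), and to Stat4, which carries the IL-12 signal to Th1 genes (0.96, adjusted p = 0.612). Foxp3, the Treg factor itself, chosen after its values were seen, was at 71.4, 95.03, 92.6 and 113 CPM against 109, 101, 194 and 92.9 CPM in WT. Its log2 fold change of -0.42 (standard error 0.20, adjusted p = 0.655) was -0.11 without WT replicate 3. Among 14 AP-1, IRF and NFAT partners of BATF and IRF4, 0 passed, 7 had a positive and 7 a negative value, and the median was 0.012 (edgeR; 1 lay under 0.05 before adjustment). Batf3, which can stand in for Batf at these elements, had the smallest p at 6.73, 14.04, 13.7 and 5.01 CPM against 4.99, 3.98, 5.82 and 2.50 CPM (log2 fold change 1.12, standard error 0.34, adjusted p = 0.231), followed by Batf2 (0.31, adjusted p = 0.668).

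Genes of the programmes that these factors take part in were grouped into 5 lists. Tested were 14 genes of the Th1, 9 of the Th2, 8 of the Th17 and 13 of the Tfh list. Of the genes linked to BLIMP-1 and c-MAF, 13 were tested. Of all genes tested 1.24% passed, and of these lists 3 genes did, Il1rl1, Il6 and Gzmb. All 3 reached 2 CPM only in the libraries labelled Alox15-/-, so that they entered the test through the group where they were high and their direction was set by the filter. In the fit without the filter they passed in the same direction, Il1rl1 at a log2 fold change of 3.43 (adjusted p = 4.37e-17), Il6 at 2.50 (adjusted p = 9.68e-05) and Gzmb at 2.71 (adjusted p = 3.86e-15). That fit gave widely spread genes much smaller standard errors, 0.126 for Il2 against 0.554 with the filter and 0.159 for Tbx21 against 0.369. Its p-values therefore do not measure the spread between libraries gene by gene. Over the whole table the fit without the filter called 388 of 28239 genes, 298 of them higher than in WT. Of the 71 genes of these 5 lists it called 17, 14 of them higher and 3 lower than in WT. The lower ones were Ccl4 (log2 fold change -0.75, adjusted p = 2.23e-05), Il2 (-0.67, adjusted p = 1.67e-05) and Pdcd1 (-0.60, adjusted p = 0.00613). None of these 3 passed with the filter, and the WT mean of each rested on replicate 4. That library stood at 143 CPM of Ccl4, 287 CPM of Il2 and 98.1 CPM of Pdcd1, while the other WT libraries were at 10.9 to 31.5, 31.7 to 42.9 and 19.1 to 27.8 CPM, beside means of 31.8, 62.3 and 27.4 CPM in the libraries labelled Alox15-/-. In the Th1 programme 14 of 15 genes were tested, and 0 passed (edgeR; 4 lay under 0.05 before adjustment). Their median log2 fold change was 0.37, with 10 positive and 4 negative values. Xcl1 (log2 fold change 1.42, adjusted p = 0.0653) and Ccl5 (1.21, adjusted p = 0.116), both chemokines of Th1 and cytotoxic cells, were closest. Ifng, the defining Th1 cytokine, was at 21.6, 10.5, 9.41 and 5.15 CPM against 4.52, 6.53, 2.01 and 7.72 CPM in WT (log2 fold change 1.20, standard error 0.42, adjusted p = 0.386, and 1.87e-04 in the fit without the filter). Xcl1 passed in 5 of 16 alternatives and Ccl5 in 3, and without WT replicate 4 both did (1.85, adjusted p = 0.00195, and 1.41, adjusted p = 0.0431). In the Th2 programme 9 of 14 were tested and 2 passed; the median was 0.34, with 7 positive and 2 negative values. Il1rl1, which encodes the IL-33 receptor ST2 of Th2 cells, some Tregs, mast cells and basophils, was at 6.49, 19.2, 5.27 and 2.43 CPM against 0.624, 0.478, 0.602 and 1.25 CPM. All 4 libraries labelled Alox15-/- lay above WT (log2 fold change 3.46, standard error 0.60, adjusted p = 0.00615), though not with the robust form of the edgeR test (adjusted p = 0.0549). Il6, a cytokine that mast cells also make, was at 2.88, 5.13, 2.45 and 2.00 CPM against 0.468, 0.797, 0.502 and 0.209 CPM (log2 fold change 2.50, standard error 0.44, adjusted p = 0.00681). The WT libraries held 1 to 5 reads of Il6 and 3 to 6 of Il1rl1. Il9, a cytokine of Th2 and Th9 cells and of mast cells, was at 145, 179.8, 225 and 159 CPM against 136, 127, 129 and 99.8 CPM in WT, with every library labelled Alox15-/- above every WT library, and it did not pass (log2 fold change 0.53, standard error 0.14, adjusted p = 0.101), though it did in the fit without the filter (0.51, adjusted p = 0.00167). Of the defining Th2 cytokine genes, Il4 was at a mean of 2.80 CPM against 2.79 CPM in WT (log2 fold change 0.027, adjusted p = 0.993), and Il5 and Il13 were under the filter. The sum of mast cell and basophil markers, of which all 11 were listed, 9 tested and 8 called (4 of them, Ms4a2, Prss34, Hdc and Cma1, at 2 CPM or more only in the libraries labelled Alox15-/-, so that the filter set their direction), was 234, 376, 187 and 145 CPM in replicates 1 to 4 labelled Alox15-/- and 59.3 to 83.9 CPM in WT, and none of these markers was at 0 in every library. Its part in the levels of Il1rl1 and Il6 was not tested.

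In the Th17 programme 8 of 14 genes were tested, and 0 passed (edgeR; 4 lay under 0.05 before adjustment). The median was 0.58, with 7 positive values and 1 negative one. Ccl20 (1.64, adjusted p = 0.22) and Tmem176a (0.66, adjusted p = 0.322) had the smallest p, and Il17a, Il22, Il21 and Il23r were under the filter. Il17a, the cytokine that gives the lineage its name, had 17, 10, 17 and 1 reads in the libraries labelled Alox15-/- and 1, 2, 6 and 9 reads in WT, and the groups overlapped. In the fit without the filter Il17a passed (log2 fold change 1.77, adjusted p = 0.0386), as did Il21 (2.66, adjusted p = 0.0311), with replicate 4 labelled Alox15-/- at 1 read of Il17a. Il21 had 6, 14, 1 and 2 reads in the libraries labelled Alox15-/-, most of them in replicate 2, and 0, 1, 3 and 1 in WT. In the Tfh programme 13 of 14 were tested, and 0 passed (edgeR; 1 lay under 0.05 before adjustment). The median was 0.043, with 9 positive and 4 negative values. Slamf6 (0.32, adjusted p = 0.561) and Tox2 (0.47, adjusted p = 0.774) came first. Of 14 genes linked to BLIMP-1 and c-MAF, 13 were tested and 1 passed; the median was 0.0087, with 7 positive and 6 negative values. This was Gzmb, the cytotoxic protease granzyme B, at 10.6, 16.5, 7.71 and 4.44 CPM against 1.09, 1.27, 1.71 and 1.46 CPM in WT (log2 fold change 2.74, standard error 0.39, adjusted p = 0.00106). Gzmb was higher in all 4 libraries labelled Alox15-/-, and in these libraries the summed γδ T cell, mast cell and NK markers given above were highest in replicate 2 as well. The part of such cells in Gzmb was not tested.

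**Figure D5:**
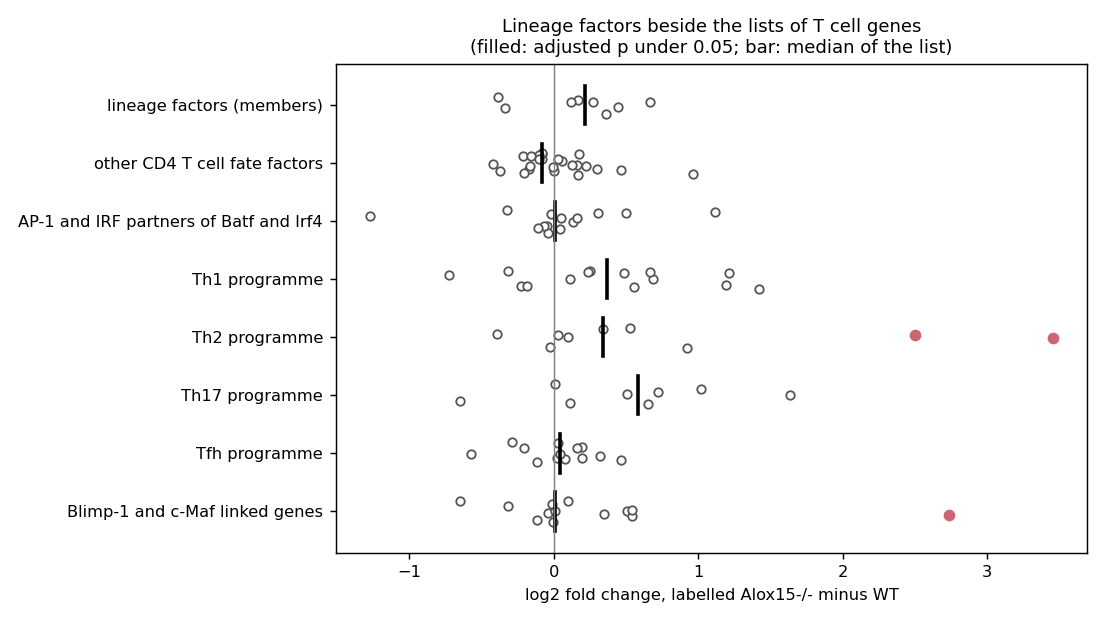
Log2 fold change (horizontal axis, libraries labelled Alox15-/- minus WT, n = 4 per group) of each tested gene of the lineage factors and of 7 lists of T cell genes (rows; vertical scatter within a row has no meaning), with filled points for adjusted p under 0.05 and a bar for the median of the list. The 3 filled points are Il1rl1 and Il6 in the Th2 row and Gzmb in the lowest row, and the 8 lineage factors lie between -0.38 and 0.66.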

How the data were processed

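The deposited table holds raw counts, which the authors left unnormalized, for gene symbols in MACE-seq libraries, which read transcripts near their 3′ ends. The submitters' processing notes name Bowtie, edgeR and GRCm38; the labels name a small RNA kit where the paper's methods name the MACE-Seq Kit. The counting tool and annotation are not given in the sources used here. Columns were matched to libraries by title. Genes reaching 2 CPM in 4 or more libraries entered edgeR 4.0.16 in R 4.3.3 (TMM, glmQLFit, glmQLFTest, group as the only term) and Benjamini–Hochberg adjustment over all 12700 genes at 0.05, the filter and adjustment being those of the study. Standard errors are the size of the log2 fold change divided by the square root of F, and 95% intervals use the fit's total degrees of freedom. The series text counts 4 mice of each genotype, without saying which library came from which, so p-values measure the spread between these libraries. Those of the fit without the filter do not do so gene by gene, since its standard errors for widely spread genes were much smaller. Ratios and marker sums were compared by two-sided exact permutation tests on log2(CPM + 0.5) and log2(summed CPM + 1).

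The fit was checked on simulated counts. Positions are those of GENCODE M21 (GRCm38). By rule, the named genes are the 9 factors, Alox15, the calls of each list (or the 2 smallest p) and the 3 genes closest to the factor with the smallest p; every other gene named was chosen after its values were seen. Members and lists were chosen with earlier results of these data known. Alternatives were DESeq2 1.42.0, limma-voom (limma 3.58.1), other scalings, filters and pseudocounts, the robust fit, the replicate number as a block, and each library left out. Figures were drawn with matplotlib 3.10.9. The protein, lipid and metabolite measurements were not analysed here. The result for 1 further gene is not reported here.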

Additional observations from a re-analysis of the deposited data

Results flagged for a closer look

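In groups of 4 libraries, 7 of 74 sets of values had 1 library far from the other 3 by Dixon's test at its 95% critical value, which chance alone reaches in about 1 of 20 such sets. Among the 18 sets of the lineage factors there was 1, Prdm1 in replicate 2 labelled Alox15-/- at 2.97 CPM, and the same library set the ratio of Bcl6 to Prdm1 apart at a log2 of 0.70. In WT, replicate 4 stood apart for Ccl20 at 2.51 CPM, and replicate 3 for Foxp3 at 194 CPM. For sums of markers on the log2 scale, WT replicate 2 stood apart for CD8 T cells at 4.50, and replicate 4 labelled Alox15-/- for γδ T cells at 6.30 and for B cells at 8.40, each below the others of its group. The wide spread of Tbx21 in the libraries labelled Alox15-/- did not reach the critical value.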

How the results depend on the processing

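The number of lineage factors called was 0 in 14 of 16 alternatives, 1 (Irf4) without the expression filter and between 0 and 1 with a library left out, the 1 being Gata3 without replicate 1 labelled Alox15-/-. Without the filter, 388 of 28239 genes were called over the table, 298 of them higher than in WT, against 158 calls with it. The calls became 1 among other fate factors, 2 among AP-1 and IRF partners, 5 in the Th1, 5 in the Th17 and 1 in the Tfh programme, and 3 among genes linked to BLIMP-1 and c-MAF. The Th2 programme then had 3, as with DESeq2's Wald test. Of these 20 calls among the 114 genes of the lists beside the lineage factors, 15 were higher and 5 lower than in WT. The lower ones were Foxp3, whose WT mean rested on replicate 3, and Fosb, Ccl4, Pdcd1 and Il2, whose WT means rested on replicate 4 (Fosb at 16.7 CPM there and 1.81 to 2.65 CPM in the other WT libraries). In the Th1 programme DESeq2's Wald test called 2 genes and limma-voom 1, and in the Th2 programme the robust fit called 1. With each library left out the calls lay between 0 and 3 (Th1), 0 and 2 (Th2), 0 and 1 (Th17) and 0 and 1 (BLIMP-1 and c-MAF); the 0 for Th2 and for BLIMP-1 and c-MAF arose when a library labelled Alox15-/- was left out, since Il1rl1, Il6 and Gzmb then no longer reached 2 CPM in 4 libraries and were not tested. The sign turned for Rora with a library left out (-0.025 to 0.49) and for the ratio of Bcl6 to Prdm1 with a pseudocount of 2 (0.013) and with a library left out (-0.31 to 0.35); the cause was not tested.

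With the replicate number as a block, 0 lineage factors and 146 genes in all were called by edgeR, the calls of the other lists kept their counts (2 in the Th2 programme and 1 among genes linked to BLIMP-1 and c-MAF), and the paired exact test of the ratios, whose smallest p is 0.125, could not pass. Deviations of libraries with the same number correlated at 0.0691, 0.165, -0.178 and -0.0177, so the numbers are not shown to pair the libraries. Median log2 shifts over all genes were 0.0044 with DESeq2 size factors and 0.028 with upper quartile scaling. Depth limits Prdm1, with 4 to 13 reads per library, and Eomes, with 11 to 28.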

Other observations

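WT replicate 4 stood high for some genes of the lists and low for others, all chosen after their values were seen. Pdcd1, which encodes PD-1, was at 98.1 CPM there and at 27.8, 22.5 and 19.1 CPM in WT replicates 1 to 3. Btla was at 121 CPM against 69.9, 55.3 and 45.8 CPM, Cd5 at 234 CPM against 121, 134 and 105 CPM, and Nfatc1 at 91.4 CPM against 59.6, 52.6 and 52.8 CPM. It was the lowest WT library for Icos, at 59.1 CPM against 69.1, 72.3 and 70.03 CPM, and for Slamf6, Il2ra and Nfatc2. The same library held the highest WT levels of Bcl6, Maf, Irf4, Batf and Rora given in the report.

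Tcf7, which encodes TCF-1 and is known as abundant in naive T cells, was counted at 0.209 to 1.68 CPM over the 8 libraries and did not reach the filter. In the fit without the filter its log2 fold change was 0.83, with a 95% interval from -0.32 to 1.98 (edgeR adjusted p = 0.768).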
